A study of Mus musculus with 15 samples.

Results

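The 10 genes Etv1, Etv4, Etv5, Dusp4, Dusp5, Dusp6, Ccnd1, Shc3, Phlda1 and Fosl1 encode ETS transcription factors and other outputs of ERK signalling that are known or proposed targets of the repressor CIC (capicua). They were taken by symbol from the 24421 genes counted in each library. Of the 10, 9 passed the filter on low counts and were tested, and Fosl1 did not. The libraries came from cerebella of FVB mice in 3 groups of 5: wild type (WT), mice carrying Pcp2-ATXN1[82Q], and mice carrying Pcp2-ATXN1[82Q]V591A;S602D. ATXN1[82Q] is human ataxin-1 with 82 glutamines, the kind of expansion that causes spinocerebellar ataxia type 1 (SCA1), and the Pcp2 promoter is active in Purkinje cells. V591A;S602D denotes amino acid substitutions known to weaken binding of ATXN1 to CIC, and the transgene carrying them is called the substituted transgene here. The labels used here give neither age, sex nor founder line, and they do not say that each library is a separate animal, and the tests therefore compare libraries, whose spread may be partly technical.

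CIC is an HMG-box repressor that binds short octamers near the genes it silences, and ATXN1 binds CIC. In many cells ERK signalling relieves this repression, so that ETS factor genes and genes for feedback inhibitors of the pathway are transcribed. In the cerebellum, ETV1 is best known from granule cells, the small excitatory neurons that send their axons to Purkinje cells, where it is part of the maturation programme.

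Promoter sequence from RefSeq (GRCm38.p6, from 250 bases before to 50 bases after an annotated start) was matched for 4 of the 10 members, in 6 windows. The Dusp6 window, at chr10:99262981-99263280 on the plus strand, is shown because it was the member window holding any of the 4 CIC octamers searched. Those octamers were TGAATGAA, TGAATGGA, TCAATGAA and TCAATGGA, on both strands. Capitals mark TCCATTGA, which is TCAATGGA read on the other strand.

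Dusp6 window: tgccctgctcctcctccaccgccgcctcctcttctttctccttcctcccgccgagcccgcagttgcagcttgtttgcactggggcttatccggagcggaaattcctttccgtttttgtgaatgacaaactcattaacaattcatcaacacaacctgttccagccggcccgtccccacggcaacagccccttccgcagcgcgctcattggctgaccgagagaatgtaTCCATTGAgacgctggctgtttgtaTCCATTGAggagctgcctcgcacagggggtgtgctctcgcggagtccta

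The 2 matches began 24 bases before the start and 1 base after it. Among 32851 windows of this length, 1260 (3.84%) held at least 1 of the octamers and 60 (0.183%) held 2 or more. The other 5 member windows held none of them, and none of the 6 held the ETS string CCGGAAGT, the AP-1 string TGACTCA or the CRE string TGACGTCA, which occurred in 3.89%, 5.2% and 1.79% of all windows. One Etv5 window, at chr16:22438319-22438618 on the minus strand, held a related string, TGAATGGG, 3 times. This string was added after the windows had been read, so its count is a description chosen for being high. It is printed with the matches in capitals, the last of them on the other strand.

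Etv5 window: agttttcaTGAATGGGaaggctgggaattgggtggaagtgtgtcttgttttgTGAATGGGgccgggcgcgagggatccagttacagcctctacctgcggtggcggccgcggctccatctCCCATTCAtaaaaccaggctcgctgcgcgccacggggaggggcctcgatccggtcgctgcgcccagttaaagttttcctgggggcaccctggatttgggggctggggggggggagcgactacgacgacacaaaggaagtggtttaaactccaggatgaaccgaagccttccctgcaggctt

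TGAATGGG occurred at least once in 1.08% of the 32851 windows and at least 3 times in 1 of them. A string match is not a measured binding site.

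Counts assigned to genes ranged from 36467948 to 42818401 per library. Transthyretin (Ttr), a choroid plexus transcript, ranged from 4.26 to 4869 CPM (gene counts scaled to a common library size) and reached 100 CPM in 2 WT, 3 ATXN1[82Q] and 3 substituted-transgene libraries. Brainstem neuron markers stood more than 1 log2 unit above the median library in ATXN1[82Q] replicates 2 and 5 and in substituted-transgene replicate 4. Results that depend on these libraries are given with and without them. Of 19 Purkinje cell markers, 17 fell in ATXN1[82Q] mice against WT, as did 14.9% of all tested genes. Summed marker levels were 11055 to 12481 CPM in WT, 4677 to 5618 CPM in ATXN1[82Q] and 8028 to 10689 CPM with the substituted transgene. In this bulk tissue, fewer cells of a type and less RNA per cell cannot be told apart, and the part of the Purkinje cell markers in the results was not tested.

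Comparing ATXN1[82Q] with WT, Etv1, Etv4, Dusp4, Dusp5 and Dusp6 fell and Ccnd1 rose, while Etv5, Shc3 and Phlda1 did not pass the test. The 5 lower calls among 9 tested members compare with 14.9% of all 15843 tested genes called lower, and the 1 higher call with 16.6% called higher. Etv1, Etv4, Dusp6 and Ccnd1 showed no overlap between the 5 ATXN1[82Q] and the 5 WT libraries, which was the case for 19.2% of tested genes. The median log2 fold change was -0.37 over the 9 members and 0.01 over all tested genes. The members were chosen with earlier results of these data known, so these shares and medians are a description and test no excess. These calls come from edgeR's quasi-likelihood test with Benjamini-Hochberg adjustment over all tested genes, at an adjusted p under 0.05.

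Comparing the substituted transgene with WT, none of the 9 members was called by edgeR, and 3 (Etv4, Dusp6 and Ccnd1) were at an unadjusted p under 0.05. DESeq2 called 1 of them, Etv4, with an adjusted p of 0.0364. Over all tested genes edgeR called 1.2% lower and 0.208% higher, and 3.16% had groups that did not overlap, against none of the members. The members' median log2 fold change was 0.02.

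Between the transgenes, Etv1, Etv4, Dusp4, Dusp5 and Shc3 were lower in ATXN1[82Q] mice than in mice with the substituted transgene, and no member was called higher. Of all tested genes, 14.6% were called lower and 13.5% higher in this comparison. Etv1, Etv4, Etv5 and Dusp5 had no overlap between these groups, as did 17.9% of tested genes. The median was -0.40 over the 9 members and 0.01 over all tested genes. The 3 comparisons share groups, so they are not independent of each other. The limit from the choice of members, given above, holds here too.

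Among the ETS factors, Etv1 was the most abundant member. In WT it was at 456, 492, 566, 487 and 416 CPM, in ATXN1[82Q] at 329, 333, 327, 288 and 261 CPM, and with the substituted transgene at 517, 462, 465, 424 and 471 CPM (replicates 1 to 5 in each). All ATXN1[82Q] libraries were below all others, and the other 2 groups overlapped. Etv1 fell 1.57-fold in ATXN1[82Q] against WT, from 483 ± 55.2 to 308 ± 31.6 CPM (SD, n = 5 each), a log2 fold change of -0.65 (SE 0.0798; edgeR adjusted p = 9.72e-06). It was also lower than with the substituted transgene (468 ± 33.2 CPM), by a log2 fold change of -0.60 (edgeR adjusted p = 5.32e-05). The substituted transgene differed from WT by -0.05 on the log2 scale, with a 95% interval from -0.22 to 0.12 (edgeR adjusted p = 0.867). The GRCm38 annotation places Etv1 at chr12:38779380-38870484 on the plus strand.

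Granule cell markers moved the same way as Etv1. Over all tested genes, 14.9% were called lower in ATXN1[82Q] against WT and 14.6% against the substituted transgene. Of 13 granule cell markers, 10 fell and none rose in ATXN1[82Q] against WT, the median log2 difference being -0.20. All 13 were lower than with the substituted transgene. Their summed level was 8357 to 9653 CPM in WT, 6750 to 7205 CPM in ATXN1[82Q] and 8252 to 9117 CPM with the substituted transgene, and none was at 0 in all libraries. Their part in the Etv1 result was not tested. The gene whose log2 CPM followed Etv1 most closely over the 15 libraries, of 12028 candidates, was Gabra6, which encodes a GABA-A receptor subunit characteristic of granule cells, with a Pearson r of 0.997, and 0.982 after genotype means were taken out. Gabra6 was at 1280 ± 116 CPM in WT, 906 ± 79.8 CPM in ATXN1[82Q] and 1247 ± 71.2 CPM with the substituted transgene (SD, n = 5 each). Camk4, for a calcium/calmodulin-dependent kinase, and Scn2a1, for a sodium channel, came next with r of 0.993 and 0.992. These likeness values describe 15 libraries that share depth, dissection and genotype.

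Etv4, a member of the same PEA3 subfamily of ETS factors, was much less abundant. It was at 16.9, 22.2, 15.5, 16.5 and 17.5 CPM in WT, at 10, 9.76, 10.2, 12 and 10.6 CPM in ATXN1[82Q], and at 12.8, 15.2, 15.9, 13 and 14.5 CPM with the substituted transgene. The ATXN1[82Q] libraries lay below both other groups, and only the 15.9 CPM library with the substituted transgene reached into the WT range. Etv4 fell 1.68-fold in ATXN1[82Q] against WT, from 17.7 ± 2.62 to 10.5 ± 0.889 CPM, with a log2 fold change of -0.75 (SE 0.0926; edgeR adjusted p = 1.03e-05). Against the substituted transgene the log2 fold change was -0.44 (edgeR adjusted p = 0.00232), and in the 3 WT, 2 ATXN1[82Q] and 2 substituted-transgene libraries with Ttr under 100 CPM it was -0.42 with an adjusted p of 0.123. The substituted transgene was at -0.31 against WT, with a 95% interval from -0.51 to -0.12 and an edgeR adjusted p of 0.126. Pde9a, for a cyclic GMP phosphodiesterase, followed Etv4 most closely (r = 0.957 over 15 libraries, 0.718 within genotypes). Etv4 lies at chr11:101769742-101785371 on the minus strand.

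Etv5, the remaining member of the subfamily, was at 79.6, 87.6, 87, 78.9 and 54.4 CPM in WT and at 69.5, 74.5, 64.4, 61.1 and 40.5 CPM in ATXN1[82Q]. With the substituted transgene it was at 82, 74.9, 84.2, 75.6 and 79.1 CPM. In both WT and ATXN1[82Q] the lowest value was replicate 5, and Ttr stood at 3793 and 4869 CPM in those libraries. Etv5 varied among the other libraries with high Ttr. ATXN1[82Q] replicate 2, with Ttr at 3248 CPM, had the highest Etv5 of its group. So did substituted-transgene replicate 3, with Ttr at 2253 CPM. Substituted-transgene replicates 2 and 4, with Ttr at 1853 and 3545 CPM, had the lowest values of that group. ATXN1[82Q] replicate 4, with Ttr at 3237 CPM, was at 61.1 CPM. WT replicate 1, with Ttr at 1090 CPM, was at 79.6 CPM. The part of Ttr was not tested. The log2 fold change was -0.32 in ATXN1[82Q] against WT (95% interval -0.61 to -0.04, edgeR adjusted p = 0.0784) and -0.35 against the substituted transgene (edgeR adjusted p = 0.0589), so neither was called. Without WT replicate 5 the first was -0.43 with an adjusted p of 0.00969 and the second had an adjusted p of 0.0241. Without ATXN1[82Q] replicate 5 they were -0.20 (edgeR adjusted p = 0.171) and -0.23 (edgeR adjusted p = 0.126). Leaving out ATXN1[82Q] replicate 2 gave adjusted p-values of 0.0404 and 0.0316. In the libraries with Ttr under 100 CPM, which include neither of these replicate 5 libraries, the values were -0.34 and -0.26, with edgeR adjusted p-values of 0.00312 and 0.0331. The substituted transgene differed from WT by 0.03 (edgeR adjusted p = 0.957). Spred1, for an inhibitor of RAS to ERK signalling, followed Etv5 most closely, with r of 0.956 over the 15 libraries and 0.953 within genotypes. In Spred1, too, replicate 5 was the lowest library of WT, at 140 CPM, and of ATXN1[82Q], at 110 CPM. The r without these libraries was not computed. Etv5 lies at chr16:22381309-22439719 on the minus strand.

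The dual-specificity phosphatases remove phosphate from MAP kinases. DUSP6 acts on ERK in the cytoplasm, and DUSP4 and DUSP5 are nuclear. Dusp4 had the most negative fold change of the members. It was at 8.39, 9, 8.45, 5.22 and 7.58 CPM in WT, at 3.56, 5.85, 4.57, 3.38 and 3.36 CPM in ATXN1[82Q], and at 7.62, 5.12, 6.89, 7.05 and 7.38 CPM with the substituted transgene. ATXN1[82Q] replicate 2 overlapped the lowest library of each other group, and the remaining 4 lay below them all. Dusp4 fell 1.86-fold against WT, from 7.73 ± 1.49 to 4.14 ± 1.07 CPM, with a log2 fold change of -0.90 (SE 0.169; edgeR adjusted p = 0.00065). Against the substituted transgene the log2 fold change was -0.72 (edgeR adjusted p = 0.00486), and the substituted transgene differed from WT by -0.18 (edgeR adjusted p = 0.719). Sowahb and Rapgef4, the latter for an exchange factor that responds to cyclic AMP, and Bdnf, for a neurotrophin, followed Dusp4 most closely, with r of 0.967, 0.926 and 0.921. Dusp4 lies at chr8:34807297-34819894 on the plus strand.

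Dusp5 was at 44.5, 51.6, 50.6, 37.1 and 42.4 CPM in WT, at 30.8, 39.8, 35.8, 35.3 and 33.4 CPM in ATXN1[82Q], and at 48, 42.3, 48.7, 43.9 and 47.3 CPM with the substituted transgene. ATXN1[82Q] replicate 2 was above the lowest WT library, and all 5 ATXN1[82Q] libraries were below those with the substituted transgene. Dusp5 fell 1.29-fold against WT, from 45.3 ± 5.99 to 35 ± 3.29 CPM (log2 fold change -0.37, SE 0.0824, edgeR adjusted p = 0.00251), and was at -0.40 against the substituted transgene (edgeR adjusted p = 0.00211). The substituted transgene and WT differed by 0.02 (edgeR adjusted p = 0.941). Its closest gene was Tmem132c (r = 0.934). Dusp5 lies at chr19:53529109-53542431 on the plus strand, and 22.1% of its exon length overlaps a gene on the opposite strand, AC137853.2. That symbol was not among the genes counted.

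Dusp6, whose promoter holds the paired octamers shown above, was at 21.8, 28.2, 21, 20.2 and 20.9 CPM in WT, at 15.9, 16.5, 18.7, 19.1 and 15.2 CPM in ATXN1[82Q], and at 17.4, 15.8, 20.4, 19.8 and 21 CPM with the substituted transgene. The ATXN1[82Q] libraries were all below the WT libraries, and those with the substituted transgene overlapped both groups. Dusp6 fell 1.31-fold in ATXN1[82Q] against WT, from 22.4 ± 3.29 to 17.1 ± 1.77 CPM (log2 fold change -0.39, SE 0.0993, edgeR adjusted p = 0.00623). The call was lost in the libraries with Ttr under 100 CPM (-0.42, edgeR adjusted p = 0.0748) and without the 3 libraries high in brainstem markers (-0.33, edgeR adjusted p = 0.0588). The substituted transgene was at -0.25 against WT (95% interval -0.46 to -0.04, edgeR adjusted p = 0.32), and at -0.15 without WT replicate 2 (edgeR adjusted p = 0.542). ATXN1[82Q] was at -0.14 against the substituted transgene (edgeR adjusted p = 0.307), and at -0.05 without the libraries high in brainstem markers. Bzrap1 followed Dusp6 most closely (r = 0.92). Dusp6 lies at chr10:99263231-99267489 on the plus strand.

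Ccnd1 encodes cyclin D1, which partners CDK4 and CDK6 at the start of the cell cycle and is transcribed in response to ERK signalling in many cells. It was at 26.1, 22.1, 23, 28 and 26.9 CPM in WT, at 37.2, 33.5, 35.1, 32.5 and 36.8 CPM in ATXN1[82Q], and at 32, 35.1, 30.6, 25.8 and 27.3 CPM with the substituted transgene. Every ATXN1[82Q] library was above every WT library, and the substituted transgene overlapped both. Ccnd1 rose 1.39-fold in ATXN1[82Q] against WT, from 25.2 ± 2.54 to 35 ± 2.02 CPM (log2 fold change 0.47, SE 0.0807, edgeR adjusted p = 0.000283). The substituted transgene was at 0.26 against WT (95% interval 0.09 to 0.43, edgeR adjusted p = 0.163), and ATXN1[82Q] was at 0.21 against the substituted transgene (edgeR adjusted p = 0.0547). This last difference was called without WT replicate 2 (edgeR adjusted p = 0.0469) or without substituted-transgene replicate 2 (0.27, edgeR adjusted p = 0.0183). Ccnd1 lies at chr7:144929931-144939925 on the minus strand, and 23.4% of its exon length overlaps Oraov1, which was counted at 18.4 to 19.9 CPM as group means.

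Microglia, oligodendrocyte and oligodendrocyte precursor markers moved the same way as Ccnd1, and Bergmann glia and astrocyte markers went both ways. Of 12 oligodendrocyte markers 7 rose and none fell in ATXN1[82Q] against WT. Endothelial and mural cell markers gave 3 of 12 higher and none lower, and interneuron markers 5 of 9 higher and 1 lower. Over all tested genes 16.6% were called higher. All 15 microglia markers rose in ATXN1[82Q] against WT, by a median of 0.90 on the log2 scale, and none of the 15 was called with the substituted transgene. Their summed level was 205 to 239 CPM in WT, 381 to 424 CPM in ATXN1[82Q] and 218 to 258 CPM with the substituted transgene. Of 8 oligodendrocyte precursor markers 6 rose, and the summed level was 266 to 365 CPM in WT, 368 to 460 CPM in ATXN1[82Q] and 311 to 341 CPM with the substituted transgene. Of 15 Bergmann glia and astrocyte markers 7 rose and 3 fell, and the summed level was 5786 to 6057 CPM in WT, 6015 to 6671 CPM in ATXN1[82Q] and 5746 to 6094 CPM with the substituted transgene. Of 9 markers of dividing cells, Mki67 and Bub1 rose, and the summed level was 71.6 to 73.9 CPM in WT, 71.7 to 78.2 CPM in ATXN1[82Q] and 70.5 to 75.4 CPM with the substituted transgene. No marker of these lists was at 0 in all libraries, and their part in the Ccnd1 result was not tested. Notch3, for a receptor of vascular mural cells, followed Ccnd1 most closely (r = 0.913 over 15 libraries, 0.721 within genotypes).

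Shc3 encodes a neuronal adaptor that links receptor tyrosine kinases to RAS. It was at 4.85, 6.85, 6.96, 9.27 and 5.09 CPM in WT, at 5.95, 6.26, 4.4, 4.09 and 5.1 CPM in ATXN1[82Q], and at 6.78, 7.95, 9.9, 6.22 and 8.6 CPM with the substituted transgene. ATXN1[82Q] overlapped WT widely and the substituted transgene by 1 pair of libraries. Shc3 was called between the transgenes, at 5.16 ± 0.946 CPM with ATXN1[82Q] and 7.89 ± 1.46 CPM with the substituted one (1.53-fold lower, log2 fold change -0.61, edgeR adjusted p = 0.0147). In the libraries with Ttr under 100 CPM this was -0.57 with an adjusted p of 0.1. Against WT, ATXN1[82Q] was at -0.36 (edgeR adjusted p = 0.131) and the substituted transgene at 0.26 (edgeR adjusted p = 0.601), values of opposite sign. The first was -0.58 in the libraries with Ttr under 100 CPM, where it was called (edgeR adjusted p = 0.0481), and -0.20 without WT replicate 4 (edgeR adjusted p = 0.385). Rab3c, for a small GTPase of synaptic vesicles, followed Shc3 most closely (r = 0.972 over 15 libraries, 0.955 within genotypes). Shc3 lies at chr13:51431041-51569419 on the minus strand.

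Phlda1 encodes a pleckstrin-homology-like protein induced by growth factor signalling. It ranged from 6.17 to 7.48 CPM in WT, from 6.69 to 10.3 CPM in ATXN1[82Q] and from 5.93 to 7.85 CPM with the substituted transgene, so all 3 groups overlapped. The log2 fold changes were 0.23 (edgeR adjusted p = 0.116) in ATXN1[82Q] against WT, 0.03 (edgeR adjusted p = 0.954) for the substituted transgene against WT and 0.21 (edgeR adjusted p = 0.169) between the transgenes. Without the 3 libraries high in brainstem markers the first was 0.05 and the last 0.06, and with Ttr under 100 CPM they were 0.04 and 0.02. Without ATXN1[82Q] replicate 2 they were 0.14 and 0.11. Phlda1 lies at chr10:111506286-111508645 on the plus strand, and 33% of its exon length overlaps Gm28592. No gene of that symbol was among those counted.

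Fosl1 encodes FRA1, an AP-1 subunit induced by sustained ERK signalling. It had 7, 6, 5, 5 and 10 counts in the WT libraries, 4, 3, 9, 1 and 4 in the ATXN1[82Q] libraries and 6, 6, 15, 6 and 4 with the substituted transgene. Fosl1 was below the count filter, and the groups overlapped. Fitted without the filter, no comparison called it, with log2 fold changes of -0.72 (SE 0.485, edgeR adjusted p = 0.315) in ATXN1[82Q] against WT, 0.14 (SE 0.451, edgeR adjusted p = 0.958) for the substituted transgene against WT and -0.86 (SE 0.478, edgeR adjusted p = 0.222) between the transgenes. In addition, 57.2% of its exon length at chr19:5447547-5455946 overlaps Ccdc85b, which was counted at group means of 69.4 to 75.2 CPM, and the strand setting of the counting is not given in the sources used here.

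Per kilobase of exon, the WT order of levels ran from Etv1 at 36.4 CPM per kb through Etv5 at 18.9 and Dusp5 at 18.3, which overlapped each other. Dusp6 at 7.16, Etv4 at 5.71 and Ccnd1 at 5.35 CPM per kb followed, each overlapping the next. Phlda1 at 3.15, Dusp4 at 2.82 and Shc3 at 1.44 formed a further overlapping run, and Fosl1 was at 0.0836 CPM per kb. In ATXN1[82Q] the order of the first 3 and of the last 3 was kept, and that of the 4 between them changed. Ccnd1 came next after Dusp5, at 7.43 CPM per kb and with no overlap with Dusp6 at 5.45, and Phlda1 at 3.71 stood beside Etv4 at 3.39, which it overlapped. With the substituted transgene Ccnd1 was at 6.41, Dusp6 at 6.02 and Etv4 at 4.6 CPM per kb, and neighbours in that run overlapped.

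The rest of the pathway did not move in a single direction. For comparison, 16.6% of all tested genes were called higher and 14.9% lower in ATXN1[82Q] against WT. Among growth factor receptors, 5 of 12 rose in ATXN1[82Q] against WT and none fell, with Met at 0.91, Ntrk2 at 0.25 and Fgfr3 at 0.22 on the log2 scale. Of 16 adaptors and RAS regulators 4 rose, led by Shc1 at 0.37, and 3 fell, led by Grb2 at -0.29 and the exchange factor Rasgrp1 at -0.28. Of 18 kinases and scaffolds from RAS to ERK and its effectors, 10 fell and none rose, with a median log2 fold change of -0.11. The scaffold Ksr2 was at -0.75 and the MEK gene Map2k1 and the RSK gene Rps6ka3 at -0.29 each, whereas the ERK1 gene Mapk3 was at 0.08 and not called. With the substituted transgene against WT, 1 of the 18 was called, Map2k1 at -0.11 (edgeR adjusted p = 0.0488). Of the 12 receptors 1 was called there, Fgfr1 at 0.26 (edgeR adjusted p = 0.0154), which was at 0.17 in ATXN1[82Q] against WT (edgeR adjusted p = 0.0162). Fgfr1 was named after its values were seen.

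Of the Sprouty and Spred genes, which encode feedback inhibitors of the pathway and include known CIC targets, 1 of 6 fell in ATXN1[82Q] against WT. That was Spry1 at -0.24 (edgeR adjusted p = 0.0144), and Spry4 was at -0.41 (edgeR adjusted p = 0.17). This count is near the 14.9% of all tested genes called lower in that comparison. Between the transgenes 1 of the 6 was called, Spred3, lower in ATXN1[82Q] at -0.35 (edgeR adjusted p = 0.0148) and named after its values were seen. Of the genes for the repressor complex, none of Cic, Atxn1 and Atxn1l was called against WT. Atxn1 here is the mouse gene, and the level of the human transgene was not measured or compared between the groups. Between the transgenes Cic was at -0.12 (edgeR adjusted p = 0.0455) and Atxn1l at -0.16 (edgeR adjusted p = 0.0303), both lower in ATXN1[82Q].

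Relatives of the members changed in both directions, as did tested genes at large. Of those, 16.6% were called higher and 14.9% lower in ATXN1[82Q] against WT, and several counts below lie near these shares. Among 15 tested ETS factors outside the PEA3 subfamily, 4 rose and 1 fell in ATXN1[82Q] against WT. Spi1, the microglial factor PU.1, was at 1.09, Elf4 at 0.73 and Ets2 at -0.40, and Ets1 was at 0.24 and not called. Of 7 other MAP kinase phosphatases, Dusp16 at 0.25 and Dusp8 at 0.18 rose and Dusp10 at -0.15 fell. Of 8 tested D cyclins, partner kinases and inhibitors 4 rose and none fell, with Cdkn1c at 0.71, Ccnd2 at 0.59 and Ccnd3 at 0.30. Of 11 tested AP-1 and early response genes, Jun at 0.60 and Jund at 0.48 rose and Egr1 at -0.44 fell, and Fos was at -0.14 and not called. Phlda3, the tested relative of Phlda1, rose by 0.49. With the substituted transgene against WT, the calls among all these relatives were limited to Jund at 0.34 (edgeR adjusted p = 0.0331).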

How the data were processed

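Whole cerebella were sequenced as poly(A)- and random-primed cDNA, per the labels' protocols. Gene counts were deposited by the authors, 1 table a library, made with STAR 2.5.3a, HTSeq and the mm10 build, per the submitters' processing notes, which also name DESeq2. The series text speaks of a pair of mouse groups, whereas the labels give 3 genotypes of 5 libraries, used here. Rows that name no gene (16.8 to 18.2% of all entries without a feature, 12.8 to 14.6% not unique, 1.18 to 1.25% ambiguous) were left out. Genes were kept with edgeR's filterByExpr (minimum count 10), scaled with TMM factors (0.968 to 1.04), and fitted over all 15 libraries with edgeR's quasi-likelihood test (edgeR 4.0.16, limma 3.58.1, R 4.3.3), with Benjamini-Hochberg adjustment over 15843 genes. DESeq2 1.42.0 was an alternative. Figures were drawn with matplotlib 3.10.9. The fitting code was tested on simulated data, where it called 83 of 100 genes changed 1.5-fold and 87 of 98 changed 2-fold. For each fold, 13 false calls were recorded among 15742 genes.

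All members were named, with the 3 called genes of largest fold change per pathway list, certain fixed genes (1 of which is not reported here), and the 3 genes of highest Pearson r with each member (mean log2 CPM of at least 2). Marker lists not described in full above are given here as counts of genes higher and lower in ATXN1[82Q] against WT. Interneurons had 5 and 1 of 9, oligodendrocytes 7 and 0 of 12, and endothelial and mural cells 3 and 0 of 12. Choroid plexus and ependyma had 2 and 0 of 10, and brainstem neurons 3 and 0 of 4 tested of 12. Members and lists were chosen with earlier results of these data known. No 2 libraries of a group were within sampling noise of each other. Gene positions come from GENCODE M21 (GRCm38). Members' proteins were not analysed here.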

Additional observations from a re-analysis of the deposited data

Results flagged for a closer look

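Dixon's test was applied to each of 27 groups of 5 libraries, and 2 groups held a value far from the rest. Chance flags about 1 in 20 groups. Etv5 was at 54.4 CPM in WT replicate 5 and at 78.9 to 87.6 CPM in the other 4 WT libraries. Ttr was at 3793 CPM in that library, Etv5 varied among the other libraries with high Ttr, and the part of Ttr was not tested. Dusp6 was at 28.2 CPM in WT replicate 2 and at 20.2 to 21.8 CPM in the other 4 WT libraries, and the same library also had the highest Etv4 value, 22.2 CPM. Without it, Dusp6 with the substituted transgene against WT was at -0.15 in place of -0.25, and neither was called.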

How the results depend on the processing

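Of 23 alternative settings, 15 left out 1 library each. In ATXN1[82Q] against WT, 5 to 6 members were called lower and 1 to 2 higher with a library left out, the second higher call being Phlda1 (0.30, adjusted p = 0.05) without ATXN1[82Q] replicate 3. Between the transgenes, 5 to 6 were lower and 0 to 1 higher with a library left out. The higher call was Ccnd1, which was also the 1 higher call with DESeq2, with only the genotypes compared in the fit and with Ttr as a covariate. DESeq2 called 1 member, Etv4, lower with the substituted transgene against WT, where edgeR called 0. Restricting to Ttr under 100 CPM gave 6 lower members against WT (Etv5 and Shc3 gained, Dusp6 lost) and 4 between the transgenes, and leaving out the brainstem-high libraries gave 4 lower against WT.

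Differences between the substituted transgene and WT that were not called changed sign in some settings, and the cause was not tested. With each library left out in turn, Etv1 ranged from -0.10 to 0.01 (above 0 without WT replicate 3) and Dusp5 from -0.04 to 0.08 (below 0 without WT replicate 4). Phlda1 ranged from -0.01 to 0.08 (below 0 without replicate 4 of WT or of the substituted transgene), and Etv5 from -0.07 to 0.08 (below 0 without WT replicate 5). Phlda1 was also at -0.01 without the brainstem-high libraries, and with Ttr under 100 CPM Etv5 was at -0.08 and Shc3 at -0.01.

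Over all genes, the 223 calls for the substituted transgene against WT became 429 with DESeq2, 123 without the brainstem-high libraries, 143 without WT replicate 2, and 136 and 142 without substituted-transgene replicates 2 and 4. With Ttr under 100 CPM, which leaves fewer libraries, 4993 calls in ATXN1[82Q] against WT became 3234, and 4454 between the transgenes became 1512.

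The labels give no pairing. Of 15 same-numbered pairs, 4 deviated together with r over 0.1 (median -0.109), the highest being replicate 5 of WT and ATXN1[82Q] at 0.568. Differently numbered pairs were not compared, so these values cannot settle whether the replicate numbers pair libraries. With the replicate block, 6 members were lower in ATXN1[82Q] against WT and 6 against the substituted transgene, with Etv5 added at -0.33 (adjusted p = 0.0243) and -0.38 (adjusted p = 0.0131).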
